A study of Oryza sativa with 6 samples.

Results

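Auxin is moved from cell to cell by 2 kinds of membrane protein. AUX1-type influx carriers take the hormone into the cell, and PIN proteins let it out, often at one side of the cell only, so that their placement gives the flow a direction. In roots this flow is known to guide lateral and crown root formation, root hair growth and bending by gravity. The 8 genes described here are 1 influx carrier gene, AUX1, and 7 PIN genes, chosen by their identifiers from the 36844 genes of the count table: AUX1 (Os01g0856500), PIN1a (Os06g0232300), PIN1b (Os02g0743400), PIN1c (Os11g0137000), PIN2 (Os06g0660200), PIN5a (Os01g0919800), PIN9 (Os01g0802700) and PIN10a (Os01g0643300).

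The expression of these genes was compared between 2 rice cultivars, 9311 and HHZ (Huanghuazhan), using roots and 3 libraries per cultivar. The labels name no mutation or transgene in either cultivar, and both were raised in culture solution with 1 mM NH4NO3, kept without NH4NO3 for 2 days from 50 days after germination (DAG) and returned to 1 mM NH4NO3 for 3 h before sampling. The labels and the paper's methods name roots without saying which part was taken. Fewer cells of a type and less RNA per cell cannot be told apart, and the labels do not say whether the replicates came from separate plants. The study made these libraries to ask how root gene expression, above all of nitrogen uptake and assimilation, differs between the cultivars.

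The counted reads per library lay between 16622441 and 22646162. At this depth 3 counts correspond to between 0.128 and 0.175 CPM, a measure that divides a gene's reads by the TMM-scaled size of its library (edgeR). The root silicon transporter genes Lsi1 and Lsi2, together with Os02g0662000, also listed as a root marker, reached a summed 4440 to 7540 CPM per library. None of the 3 was at 0 in any library, but they did not move together. In HHZ replicate 3, Lsi1 and Lsi2 were at their highest (2870 and 4410 CPM). Os02g0662000 was at its lowest there, at 264 CPM against 728 and 878 CPM in HHZ replicates 1 and 2. In the 9311 replicates it was at 500, 643 and 456 CPM. The 6 genes listed as shoot markers summed to 3.07 to 5.68 CPM, and the 3 of them listed as small subunits of Rubisco had at most 5 counts in any library. The others had more: Os09g0346500 had 23 to 92 counts per library, Os01g0600900 had 7 to 36 and Os01g0501800 had 0 to 20. One library of HHZ, replicate 3, was singled out after the fits were seen: leaving it out raised the number of genes called different between the cultivars from 1468 to 2724. The genes of cell division and of the root meristem (6 genes, among them PCNA, a DNA replication clamp) summed to 96.6 CPM in this library, against 136 to 201 CPM in the other libraries. The low sum came from the cell division genes. The root meristem gene QHB/WOX5, with few reads, was at 0.737 CPM in HHZ replicate 3, against 0.480 and 0.852 CPM in HHZ replicates 1 and 2. Results below are also given without HHZ replicate 3.

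In these roots 4 of the 8 genes had enough reads to be compared and the other 4 were near the limit of detection. AUX1, PIN1a, PIN5a and PIN9 passed the filter on low counts. For PIN1b, PIN2 and PIN10a, no library held more than 3 reads, and PIN1c had 3 to 10 reads per library. None of the 4 genes tested differed between the cultivars with an adjusted p-value under 0.05 (edgeR's quasi-likelihood test, Benjamini-Hochberg adjustment over 22554 genes), where 6.51% of all genes tested did. DESeq2, the tool of the study, called 0 of the members as well, against 11.2% of all genes, and 0 of the 4 had an unadjusted p under 0.05 in edgeR, against 21.0% of all genes. The libraries of the cultivars overlapped for all 4 genes, while 27.2% of the genes tested showed no overlap in either direction.

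AUX1 encodes an influx carrier that in rice is known for its part in lateral root initiation and root hair elongation. Its expression was 181, 189 and 163 CPM in HHZ replicates 1, 2 and 3. In 9311 it was 167, 236 and 193 CPM. The level was much the same in every library, with 9311 replicate 2 the highest and HHZ replicate 3 the lowest. The mean was 198 CPM (SD 34.6, n = 3) for 9311 against 178 CPM (SD 13.5, n = 3) for HHZ. The log2 fold change of 9311 over HHZ was 0.16 (SE, its standard error, 0.153, edgeR adjusted p = 0.611). Its 95% interval ran from -0.21 to 0.53, so that the fold lay between 0.866 and 1.44. A difference in AUX1 above this size, in either direction, was outside the interval, but a smaller one could not be seen with these libraries.

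In HHZ the expression of PIN1a, a PIN efflux carrier gene, was 6.81, 7.20 and 5.53 CPM in replicates 1, 2 and 3, and in 9311 it was 4.57, 6.15 and 6.38 CPM. Between 95 and 169 reads per library stood behind these values. The 2 highest libraries were of HHZ and the lowest was 9311 replicate 1, but the groups overlapped. The log2 fold change was -0.19 (SE 0.210, 95% interval -0.70 to 0.31, edgeR adjusted p = 0.657), with 5.70 CPM (SD 0.983, n = 3) for 9311 against 6.51 CPM (SD 0.876, n = 3) for HHZ.

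**Figure D1:**
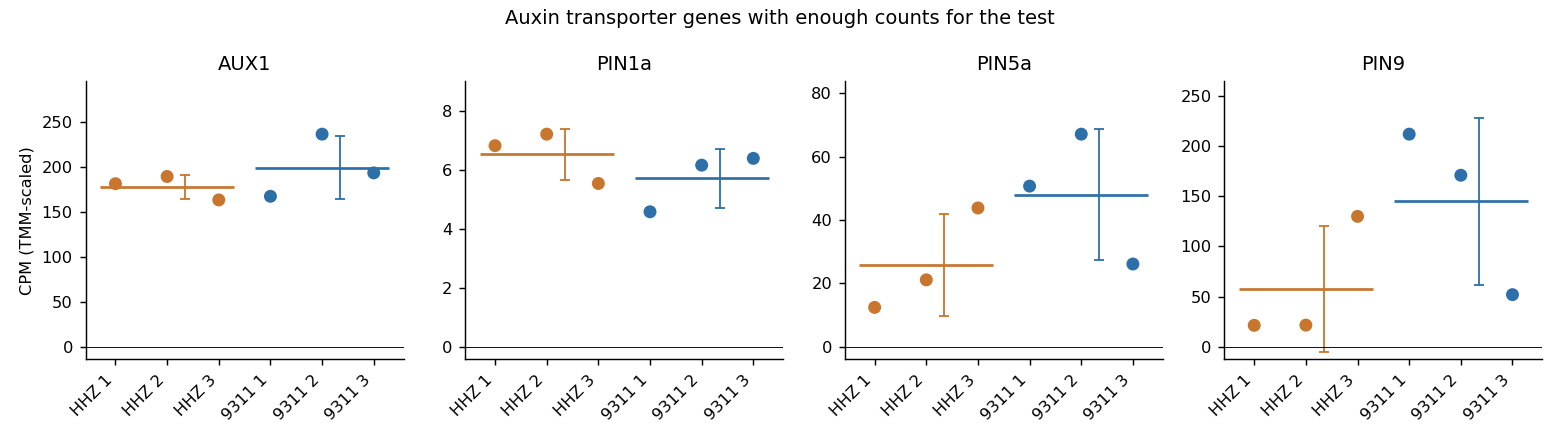
Expression (CPM, linear axis) of AUX1, PIN1a, PIN5a and PIN9 in each root library, with HHZ in orange and 9311 in blue. Horizontal lines are means and bars are SD (n = 3). AUX1 stayed between 163 and 236 CPM, whereas PIN9 ran from 21.3 to 130 CPM within HHZ and from 51.9 to 212 CPM within 9311.

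PIN5a and PIN9 had higher means in 9311 than in HHZ, by 1.86 and 2.52 times in the fit, but both varied widely among replicates of the same cultivar and neither difference passed the test. PIN9 is found in monocots and is known in rice from vascular tissue and developing adventitious roots. Its expression was 21.3, 21.5 and 130 CPM in HHZ replicates 1, 2 and 3. In 9311 it was 212, 171 and 51.9 CPM. The high libraries were therefore 9311 replicates 1 and 2 and HHZ replicate 3, and 9311 replicate 3 lay below HHZ replicate 3. The highest library was 6.08 times the lowest in HHZ and 4.09 times the lowest in 9311. With 145 CPM (SD 83.2, n = 3) for 9311 against 57.5 CPM (SD 62.5, n = 3) for HHZ, the log2 fold change of PIN9 was 1.34 (SE 0.850, edgeR adjusted p = 0.430). Its 95% interval ran from -0.70 to 3.37.

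PIN5a is one of the PIN genes whose protein has a short central loop. Proteins of this kind act at the endoplasmic reticulum in Arabidopsis and are linked to auxin balance inside the cell. PIN5a was expressed at 12.4, 21.1 and 43.8 CPM in HHZ replicates 1, 2 and 3. In 9311 it was expressed at 50.7, 67.1 and 26.1 CPM. As for PIN9, HHZ replicates 1 and 2 were the lowest libraries, 9311 replicates 1 and 2 were the highest and replicate 3 of HHZ was above replicate 3 of 9311. The mean was 48.0 CPM (SD 20.6, n = 3) for 9311 against 25.8 CPM (SD 16.2, n = 3) for HHZ. The log2 fold change of PIN5a was 0.90 (SE 0.521, 95% interval -0.35 to 2.15, edgeR adjusted p = 0.385).

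The spread within a cultivar set these 2 genes apart from AUX1 and PIN1a. On the log2 scale the within-cultivar SD was 1.30 for PIN9 and 0.80 for PIN5a, against a median of 0.24 over the genes tested. It was larger than that of 98.8% of the tested genes for PIN9 and of 95% for PIN5a. For AUX1 it was 0.19 and for PIN1a 0.22, larger than that of 38% and 44% of the genes. The replicates thus varied no more for AUX1 and PIN1a than for a typical gene, and far more for PIN9.

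The order shared by PIN9 and PIN5a, with HHZ replicates 1 and 2 lowest, then 9311 replicate 3, then HHZ replicate 3, and 9311 replicates 1 and 2 highest, was chosen after their values were seen. It was found in 631 of the 22554 genes tested (2.80%). The other auxin lists held 4 transporter, 29 Aux/IAA, 23 ARF and 6 further genes that were tested. Of these, only Os08g0529000, listed as a PIN gene, and IAA19 (Os05g0559400), an Aux/IAA gene, showed it as well. That share is near the share over all genes. HHZ replicate 3 exceeded the mean of HHZ replicates 1 and 2 by 6.06 times for PIN9 and by 2.62 times for PIN5a. Likewise, the mean of 9311 replicates 1 and 2 was 3.69 times 9311 replicate 3 for PIN9 and 2.26 times for PIN5a. The summed level of the 6 meristem genes followed neither this order nor its reverse. It was lowest in HHZ replicate 3 (96.6 CPM) and next in 9311 replicate 1 (136 CPM), where PIN9 was high. It was highest in 9311 replicate 2 (201 CPM), where PIN9 was also high (171 CPM). In 9311 replicate 3 it was 186 CPM, and in HHZ replicates 1 and 2, where PIN9 was lowest, 183 and 180 CPM. The part of root tip tissue in the result was not tested.

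**Figure D2:**
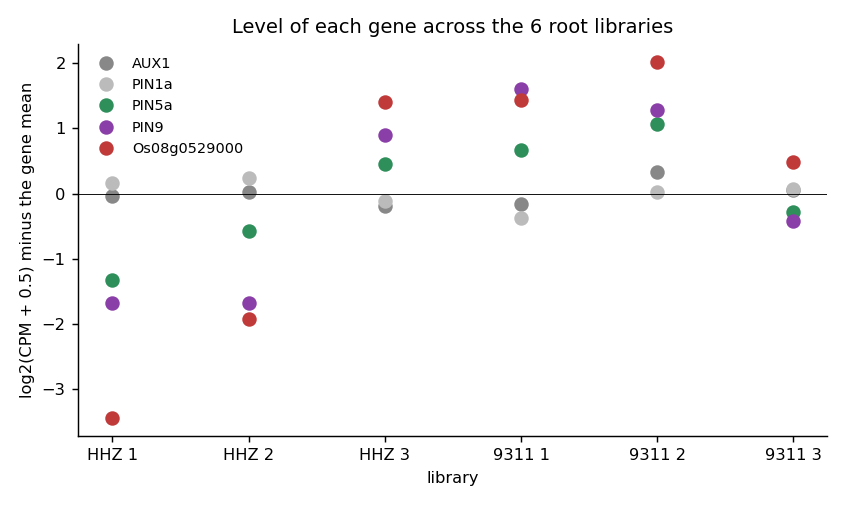
Level of 5 genes in each library as log2(CPM + 0.5) minus the mean of the gene over the 6 libraries. PIN9, PIN5a and Os08g0529000 lie below their mean in HHZ replicates 1 and 2 and above it in HHZ replicate 3 and 9311 replicates 1 and 2, while AUX1 and PIN1a stay near 0.

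Leaving out HHZ replicate 3, where PIN9 was at 130 CPM against 21.3 and 21.5 CPM in HHZ replicates 1 and 2, brought PIN9 past the threshold. Its log2 fold change was then 2.75 (adjusted p = 0.0295 in edgeR), and that fit called 11.9% of all genes. Dropping this library takes away most of the spread of PIN9 within HHZ, so the call describes the remaining libraries only. PIN5a reached a log2 fold change of 1.5 without this library and was not called (adjusted p = 0.0711 in edgeR). When replicate 3 of both cultivars was left out, an alternative added after the data were seen, the log2 fold change was 3.17 for PIN9 (adjusted p = 0.000379 in edgeR) and 1.82 for PIN5a (adjusted p = 0.0108 in edgeR), and 16.2% of all genes were called. This pair was picked with its values known, so those calls describe the remaining libraries only. Between replicates numbered 3 the direction was the opposite, with PIN9 in 9311 at 0.401 times and PIN5a at 0.595 times the HHZ level. Without any one of the other libraries PIN9 was not called, with a log2 fold change of 0.94 to 1.74. AUX1 and PIN1a were not called in any of these fits.

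**Figure D3:**
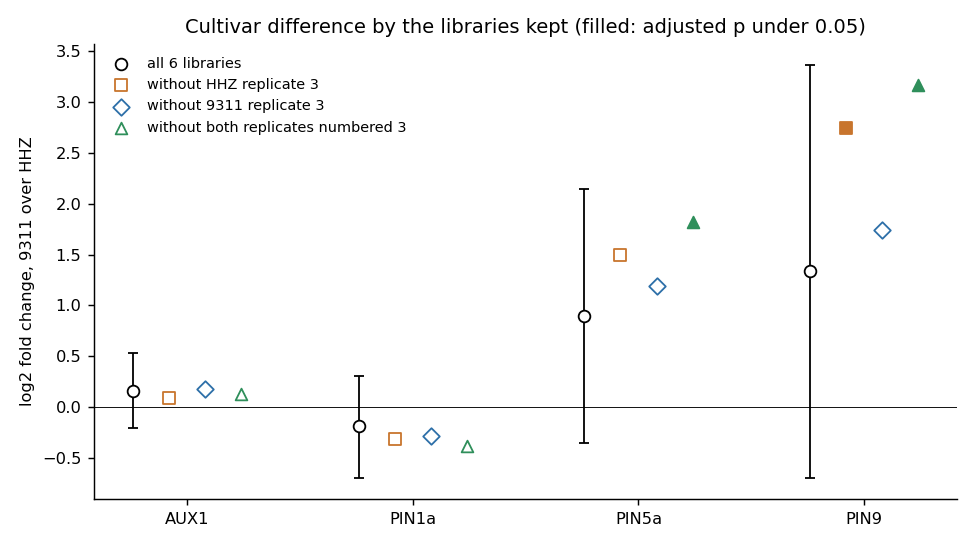
Log2 fold change of 9311 over HHZ for the 4 tested genes with all 6 libraries (circle, bar: 95% interval), without HHZ replicate 3 (square), without 9311 replicate 3 (diamond) and without both (triangle). Filled symbols have an adjusted p-value under 0.05 in edgeR. PIN9 moves from 1.34 to 2.75 and 3.17, while AUX1 stays between 0.09 and 0.18.

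The remaining 4 genes are described by their reads only. PIN2 carries auxin from the root tip back through the outer cell layers and is needed for the gravity response of roots. It had 1 read in 9311 replicate 2 and 0 in each of the other 5 libraries. PIN1b, linked to adventitious root emergence in rice, had 3 reads in 9311 replicate 1, 1 read in HHZ replicate 2 and 0 in the other 4 libraries. For PIN10a, known also as OsPIN3t, there was 1 read in each of HHZ replicate 3, 9311 replicate 1 and 9311 replicate 3, and 0 in the others. The 3 genes were not above 3 counts in any library of either cultivar, and no difference between the cultivars could be detected from such counts. Transcripts of PIN2 and PIN1b are usually found in rice roots. The strand setting of the counting and the annotation release are not given in the sources used here, so that these counts do not show whether the genes were expressed, and the part of the counting in them was not tested.

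PIN1c, known in rice for its part in panicle development, was detected with few reads. It had 4, 9 and 10 reads in HHZ replicates 1, 2 and 3 and 3, 4 and 4 reads in the 9311 replicates, which correspond to 0.339 CPM (SD 0.148, n = 3) for HHZ against 0.196 CPM (SD 0.0464, n = 3) for 9311. The groups overlapped in CPM, since HHZ replicate 1 lay below 9311 replicates 2 and 3. PIN1c lies on the part of chromosome 11 that has a near-identical copy on chromosome 12. Reads that fit both copies could be lost in counting, so its level is uncertain. Os12g0133800, listed here as its counterpart on chromosome 12, had 1 to 4 reads per library.

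**Figure D4:**
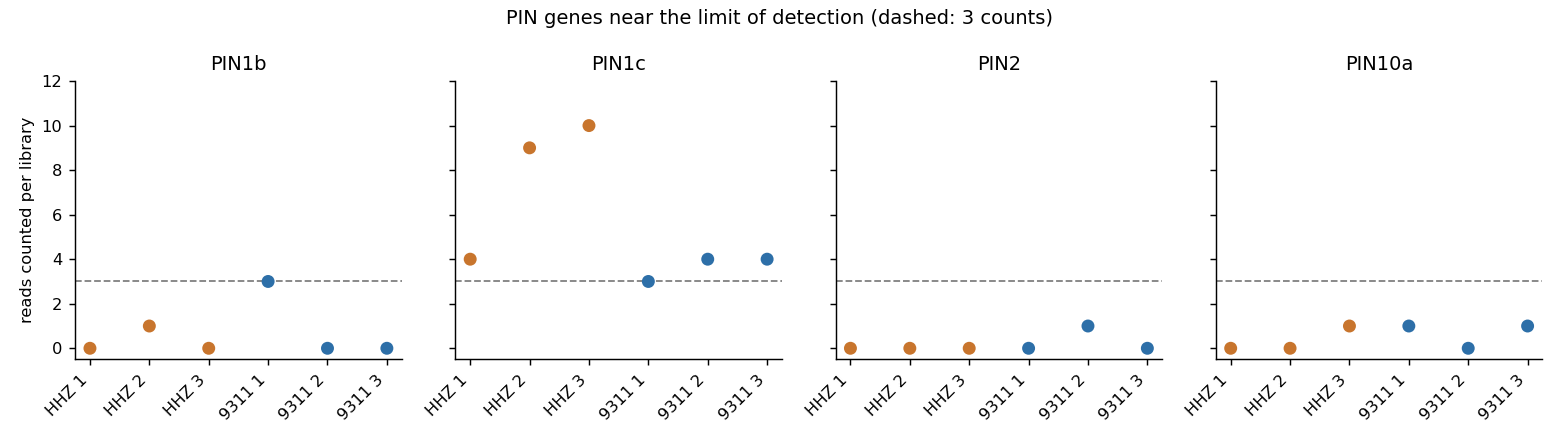
Reads counted per library (not scaled) for PIN1b, PIN1c, PIN2 and PIN10a, with HHZ in orange and 9311 in blue. The dashed line marks 3 counts, which only PIN1c exceeds, with at most 10 reads.

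For each tested member the gene with the most similar course over the 6 libraries was found as the one with the smallest root mean square difference in log2(CPM + 0.5), each gene centred on its own mean. For PIN9 this was Os05g0186300, at 0.208 on the log2 scale, against a median of 1.38 over all other genes tested. Os05g0186300 was expressed at 15.1, 18.7 and 108 CPM in the HHZ replicates and 161, 94.8 and 37.6 CPM in the 9311 replicates. For PIN5a it was Os07g0552800, at 0.175, with 1.83, 2.34 and 5.53 CPM in HHZ and 6.31, 8.52 and 2.81 CPM in 9311. The closest genes were Os03g0824000 for AUX1 (0.049) and Os01g0505700 for PIN1a (0.024). The difference between PIN9 and PIN5a themselves was 0.64. The measure is not scaled to the spread of a gene, so genes that vary little among the libraries lie close to one another by it.

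Of 9 further identifiers listed as AUX1-type or PIN genes, 4 passed the filter on low counts. Of these, edgeR called 1 (Os05g0447200), against 6.51% of all genes, and DESeq2 called 2 (Os05g0447200 and Os09g0505400), against 11.2% of all genes. Os05g0447200 was higher in HHZ, with 3.89, 2.64 and 3.41 CPM, than in 9311, with 1.16, 1.26 and 1.35 CPM. Its log2 fold change was -1.40 (SE 0.254, edgeR adjusted p = 0.0245), the libraries did not overlap, and 23 to 89 reads per library stood behind these values. Without any one library other than HHZ replicate 3, the adjusted p of Os05g0447200 in edgeR lay between 0.0507 and 0.104, and with the replicate number as a block it was 0.116. The other 5 identifiers had at most 10 reads in any library.

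Both remaining PIN5 genes were chosen for description after their values were seen. The gene table used here gives the names OsPIN5b and OsPIN5c to an entry on chromosome 8 and also to one on chromosome 9, so they are called by identifier. Os08g0529000 showed the same order of libraries as PIN9 and PIN5a, over a wider range: 6.20, 18.8 and 193 CPM in HHZ replicates 1, 2 and 3, and 198, 296 and 102 CPM in 9311. Its log2 fold change of 1.45 had an SE of 1.16 (adjusted p = 0.538 in edgeR), and without HHZ replicate 3 it was 3.98 (adjusted p = 0.0133 in edgeR). HHZ replicate 3 was again the highest HHZ library, so the latter call describes the remaining libraries only. Os09g0505400 had another order, with 10.8, 9.28 and 4.56 CPM in HHZ and 18.2, 24 and 29.3 CPM in 9311. All 9311 libraries lay above all HHZ libraries for Os09g0505400, and its log2 fold change of 1.53 (SE 0.344) was not called (adjusted p = 0.0517 in edgeR). This call depended on the fit. Os09g0505400 was called by DESeq2 (adjusted p = 0.000563) and limma-voom (adjusted p = 0.044), and in edgeR with no filter (adjusted p = 0.0459), without HHZ replicate 3 (log2 fold change 1.23, adjusted p = 0.0194) and without both replicates numbered 3 (log2 fold change 1.08, adjusted p = 0.0181). In the other edgeR fits its adjusted p was 0.0503 to 0.168, the highest with the replicate block. Unlike PIN5a and Os08g0529000, it was lowest in HHZ replicate 3.

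Auxin transport works upstream of a signalling path in which Aux/IAA proteins hold back ARF transcription factors until auxin, bound by its receptors, has the Aux/IAA proteins degraded. Of 31 genes listed as Aux/IAA, 29 were tested, 2 were higher in 9311 and 0 were higher in HHZ in edgeR, a share of calls near that of all genes. DESeq2 called 4 of them, and the median log2 fold change was 0.09 against -0.01 over all genes tested. IAA4 (Os01g0286900) was higher in 9311, at 14.7 CPM (SD 1.20, n = 3), than in HHZ, at 7.21 CPM (SD 1.28, n = 3), with a log2 fold change of 1.03 (SE 0.176, edgeR adjusted p = 0.0201). IAA23 (Os06g0597000) was at 34.9 CPM (SD 2.41, n = 3) for HHZ against 50.9 CPM (SD 4.96, n = 3) for 9311, with a log2 fold change of 0.55 (SE 0.116, edgeR adjusted p = 0.0427). Both calls were lost in most fits with fewer libraries: leaving out 1 library, other than HHZ replicate 3 for both genes and 9311 replicate 3 for IAA4, gave an adjusted p in edgeR of 0.0703 to 0.0919 for IAA4 and of 0.0522 to 0.171 for IAA23. The call of IAA23 was also lost without TMM factors, with no filter and with at least 10 counts in every library (adjusted p of 0.0689, 0.0552 and 0.0670 in edgeR). With the replicate number as a block neither was called, with an adjusted p in edgeR of 0.106 for IAA4 and 0.162 for IAA23.

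Of 25 genes listed as ARF, 23 were tested and 0 were called by edgeR, with 5 at an unadjusted p under 0.05 and 2 called by DESeq2, shares near those of all genes (21.0% and 11.2%). Their median log2 fold change was -0.12. The ARF genes with the highest mean CPM were ARF4 (Os01g0927600), with a log2 fold change of 0.09, and ARF23 (Os11g0523800), with -0.30. Of 8 genes listed for auxin synthesis, reception and control of its transport, 6 were tested and 0 were called by edgeR or DESeq2, with 0 at an unadjusted p under 0.05 in edgeR. Over all genes edgeR called 6.51% and DESeq2 11.2%, and 21.0% had an unadjusted p under 0.05 in edgeR. With 6 genes tested, these counts do not set the list apart from all genes. The 2 with the highest mean CPM were Os04g0395600 (log2 fold change 0.08) and Os01g0169800 (log2 fold change 0.61, adjusted p = 0.280 in edgeR).

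**Figure D5:**
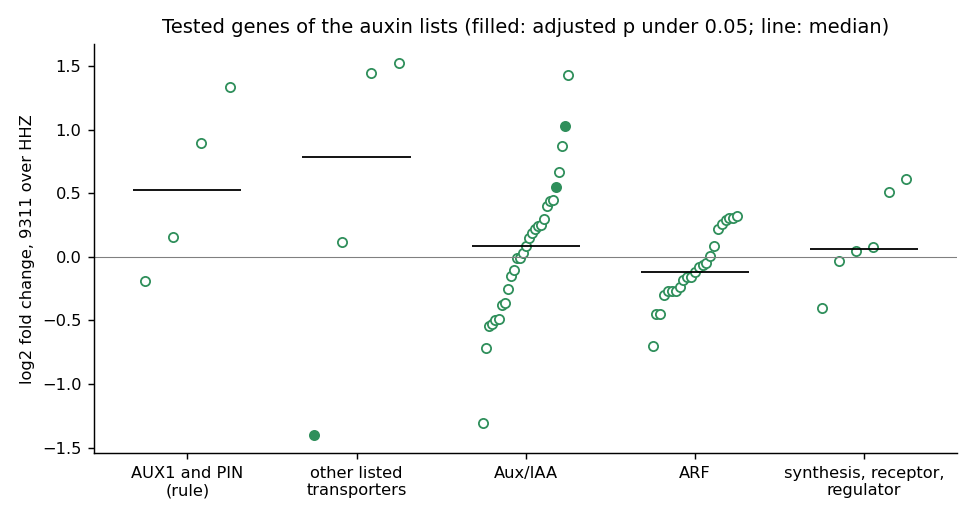
Log2 fold change of 9311 over HHZ for every tested gene of the auxin lists, with the median of each list as a line. Filled circles have an adjusted p-value under 0.05 in edgeR: Os05g0447200 at -1.40 among the other listed transporters, and IAA4 at 1.03 and IAA23 at 0.55 among the Aux/IAA genes.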

How the data were processed

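Root RNA of 9311 and HHZ was sequenced in 3 libraries each. The authors trimmed adaptors, used STAR with IRGSP-1.0 as the reference, the genome of the japonica cultivar Nipponbare, and the Ensembl Plants annotation, and deposited one raw count per gene and library, neither normalized nor pooled. The submitters' processing notes name STAR 2.5.3a, and the paper's methods name another version. The strand setting and annotation release are not given in the sources used here, so counts of overlapping genes are uncertain, and reads of diverged alleles in 9311 or HHZ may fail to align.

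9311 was set against HHZ on those deposited counts in edgeR 4.0.16 (R 4.3.3; TMM, filterByExpr with a minimum count of 10, quasi-likelihood test, cultivar as the only term, Benjamini-Hochberg adjustment over all genes, threshold 0.05). The standard error was the log2 fold change divided by the square root of F, and intervals are 95%. DESeq2 1.42.0, limma-voom (limma 3.58.1), other scalings and filters, a replicate block and each library left out were alternatives. The fit was tested on simulated data, where it called 80% of genes changed 2-fold and 100% of those changed 4-fold. Every simulated gene had the same dispersion (spread among replicates), so genes as variable as PIN9 and PIN5a were not covered. CPM values were not divided by exon length, so levels of different genes are not on one scale, and the mean CPM served only to choose which genes to name.

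The members and lists were chosen with earlier results of these data known. Named are all 8 members, the called genes of each list or else the 2 with the highest mean CPM, and the gene closest to each tested member. Outside this rule, Os08g0529000, Os09g0505400 and IAA19 were named after their values were seen, and Os12g0133800 as the counterpart of PIN1c. The table pairs no names with identifiers. Names of the members come from the choice of genes, and the RefSeq gene table of assembly ASM3414082v1 holds the same name on the same chromosome for 7 of the 8, all but AUX1. For some members its alternative names conflict. It holds such a name for 2 of the 9 other listed transporters, 28 of 31 Aux/IAA, 23 of 25 ARF and 4 of 8 other auxin genes. The others are given by identifier, and their place in a list rests on general knowledge.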

Additional observations from a re-analysis of the deposited data

How the results depend on the processing

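None of the 8 members was called with all 6 libraries in any of the 8 alternatives of test, scaling, filter or block. Only 4 members were tested in most of these fits, against 5 with DESeq2 and 8 with no filter, and a member not tested could not be called. Fits without one library called 0 to 1 of them, and without both replicates numbered 3 (added after seeing the data) 2 were called. AUX1 (0.01 to 0.26), PIN1a (-0.38 to -0.07), PIN5a and PIN9 kept their direction in all 15 alternatives. PIN9 had a log2 fold change of 0.94 to 2.75 in the fits without one library, the highest without HHZ replicate 3, and 3.17 without both replicates numbered 3. PIN5a had 1.82 in the latter fit. Over all genes, 1468 were called, against 2885 with DESeq2, 563 with at least 10 counts in every library, 761 to 2724 without one library and 3676 without both replicates numbered 3. The cause was not tested. Without TMM factors all genes shifted by a median of -0.13 (log2), and AUX1 was at 0.03.

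Libraries sharing a replicate number were not alike in expression. Over genes, their correlation, each relative to its cultivar mean, was -0.135, 0.0734 and -0.154, and 0 of 6 libraries were closest to their own number. The labels do not say whether samples sharing a number were grown or harvested together, and these values cannot show it. With the replicate block 470 genes and 0 members were called, and the calls of IAA4 (1.04), IAA23 (0.54) and Os05g0447200 (-1.38) were lost. PIN1b, PIN1c, PIN2 and PIN10a had at most 10 reads in any library, too few to be tested at this depth, and with 3 libraries per cultivar the intervals of PIN5a and PIN9 were wide.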
